A study of Mus musculus with 20 samples.

Results

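The array carried 82 probes for 53 genes of the cytochrome P450 families Cyp1, Cyp2 and Cyp3, taken as every probe whose platform symbol starts with Cyp1, Cyp2 or Cyp3 followed directly by a letter. Of these, 50 probes for 35 genes were detected (detection p under 0.05) on at least 5 of the 20 arrays and could be tested, among 18285 such probes of 45281 on the array. The other 32 probes included 20 that were detected on 0 arrays and 12 on 1 to 4 arrays. The rule used symbols and detection over all 20 arrays, not differences between groups. A probe that passed only through the group where it is high, as Cyp2b9 and Cyp2u1 did, was favoured by the filter to differ. Cyp2s1 and the Cyp2g1 probe ILMN_1226469 also passed only with their highest group, treated wild type, but were not called. Cyp1b1 and the Cyp2g1 probe ILMN_2959757 passed only through the treated arrays of both genotypes together. The counts below are therefore of measured probes and not of the families as a whole. By subfamily, the measured probes over all probes were 2 of 3 for Cyp1a, 1 of 1 for Cyp1b, 7 of 7 for Cyp2a, 2 of 8 for Cyp2b, 16 of 22 for Cyp2c, 9 of 11 for Cyp2d, 1 of 11 for Cyp2j, 1 of 3 for Cyp2u and 5 of 9 for Cyp3a. Cyp2e, Cyp2f, Cyp2r and Cyp2s each had 1 probe, which was measured, Cyp2g had 2 of 2, and Cyp2t had 0 of 1. The 18 genes with no measured probe were Cyp1a1, Cyp2b13, Cyp2b19, Cyp2b23, Cyp2c55, Cyp2c68, Cyp2d34, Cyp2j5, Cyp2j6, Cyp2j8, Cyp2j11, Cyp2j12, Cyp2j13, Cyp2t4, Cyp3a16, Cyp3a41b, Cyp3a44 and Cyp3a57.

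Illumina mouse BeadChips measured liver RNA of male mice fed a high fat diet, with 5 arrays in each of 4 groups. The groups were wild-type C57BL/6 mice without treatment, wild-type mice given an antagonist of Toll-like receptors 7 and 9, ApoE-/- mice without treatment and ApoE-/- mice given the antagonist. ApoE-/- mice lack apolipoprotein E, are labelled with the same strain, and clear remnant lipoproteins poorly. Toll-like receptors 7 and 9 are endosomal sensors of nucleic acids. Intraperitoneal injections of 15 mg/kg antagonist were given 3 times weekly from week 6 to week 11, and livers were taken at 14 weeks of age, after dosing had ended. The diet of wild-type mice held 35% fat and 0.03% cholesterol and that of ApoE-/- mice 21% and 0.15%, so genotype and diet cannot be told apart. The labels do not say whether each array holds a separate animal. The p-values therefore refer to the spread among arrays, part of which may be technical.

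Cytochromes P450 are haem enzymes of the endoplasmic reticulum that insert an oxygen atom into their substrate, with electrons supplied by the reductase Por and by cytochrome b5. Those of families Cyp1 to Cyp3 are most abundant in hepatocytes, where they oxidise drugs, steroids, fatty acids and bile acids. Many are regulated by the receptors Ahr, Nr1i3 (CAR), Nr1i2 (PXR) and Ppara, several differ between male and female mouse liver through growth hormone signalling, and inflammation is known to lower many of them. In mice the families grew by tandem duplication, so that near-identical relatives lie side by side and a probe named for one can also bind the transcript of another.

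That likeness extends upstream of the genes. The printed sequences are the 250 bases before the transcription start of 2 pairs of relatives that the results turn on, from RefSeq, build GRCm38.p6, 5′ to 3′ on the plus strand. Capitals mark bases that differ from the partner or lie opposite a gap in the alignment. Cyp2a4 lies at chr7:26306942-26307191, Cyp2a5 at chr7:26835089-26835338, Cyp2b9 at chr7:26173159-26173408 and Cyp2b13 at chr7:26061245-26061494.
Cyp2a4: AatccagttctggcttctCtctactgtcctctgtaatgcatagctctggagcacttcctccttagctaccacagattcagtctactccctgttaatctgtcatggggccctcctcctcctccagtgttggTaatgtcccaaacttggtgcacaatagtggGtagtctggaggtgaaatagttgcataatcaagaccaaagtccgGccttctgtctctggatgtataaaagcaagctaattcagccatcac
Cyp2a5: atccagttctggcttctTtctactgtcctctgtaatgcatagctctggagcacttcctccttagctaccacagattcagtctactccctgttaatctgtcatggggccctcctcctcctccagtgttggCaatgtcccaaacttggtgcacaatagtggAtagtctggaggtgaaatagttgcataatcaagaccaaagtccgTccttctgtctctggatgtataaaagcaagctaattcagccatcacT
Cyp2b9: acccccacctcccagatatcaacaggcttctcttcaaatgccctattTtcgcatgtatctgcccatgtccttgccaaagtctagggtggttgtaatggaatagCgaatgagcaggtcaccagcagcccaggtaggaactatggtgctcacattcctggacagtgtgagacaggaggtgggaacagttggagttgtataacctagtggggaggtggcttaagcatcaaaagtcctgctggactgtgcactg
Cyp2b13: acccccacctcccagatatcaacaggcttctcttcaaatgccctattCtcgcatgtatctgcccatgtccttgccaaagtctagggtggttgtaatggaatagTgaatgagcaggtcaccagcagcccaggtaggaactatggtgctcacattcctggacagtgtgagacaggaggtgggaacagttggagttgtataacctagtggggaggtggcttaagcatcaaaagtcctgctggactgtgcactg
Cyp2a4 and Cyp2a5 were 97.6% identical over this stretch, with 4 mismatches and 2 gap positions. Cyp2b9 and Cyp2b13 were 99.2% identical, with 2 mismatches. By contrast Cyp2b9 shared 68.8% with Cyp2b10 and 63.0% with Cyp2b23, and Cyp2c37 shared 84.3% with Cyp2c50. Promoters were held for 28 of the 35 measured genes. The motif AGGTCA, searched on both strands as a half-site of nuclear receptors, lay in 7 of these 28 (25%), namely Cyp2b9, Cyp2c29, Cyp2c39, Cyp2c70, Cyp2f2, Cyp3a11 and Cyp3a25, against 14.0% of 32851 mouse promoters of the same length. The motif TTCNNNGAA, the core bound by Stat5 proteins, lay in 0 of 28 against 7.0% of all promoters. A match describes letters in this window and is not a bound site.

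Members lay on chromosomes 7 (14 genes), 19 (13), 15 (8), 4 (7), 5 (7), 9 (2), 3 and 17. Within the cluster on chromosome 7, which leaves out Cyp2e1 and Cyp2r1 and includes Cyp2a22, for which there was no probe, the gene order was Cyp2s1, Cyp2b10, Cyp2b13, Cyp2b9, Cyp2a4, Cyp2b23, Cyp2b19, Cyp2g1, Cyp2a5, Cyp2a22, Cyp2a12, Cyp2f2 and Cyp2t4. Apoe, the gene deleted in the ApoE-/- mice, lies on the same chromosome, with 188 protein-coding genes of the RefSeq table between it and Cyp2a4. Of 60 protein-coding genes of the 3 families listed there, 8 had no probe named for them, namely Cyp2a22, Cyp2ab1, Cyp2c66, Cyp2c69, Cyp2d11, Cyp2w1, Cyp3a41a and Cyp3a59. The probes' own sequences were not used here, so which relatives a probe binds was not tested.

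The arrays detected 14436 to 18748 of the 45281 probes. Apoe read 13.6 to 14.61 on the normalised log2 scale in wild-type livers and 5.26 to 6.88 in ApoE-/- livers, so every array matched its labelled genotype. Hepatocyte markers summed to signals of 271000 to 309000 over all groups, and the 14 measured ones included Alb and Ttr. Replicates 1 to 3 of each group formed one batch and replicates 4 and 5 another, as read from the column names. In the second batch the untreated ApoE-/- arrays lay on another slide than the other 6 arrays, so there slide and group cannot be told apart. In a fit with slide as a block, the untreated ApoE-/- level therefore rests on replicates 1 to 3 alone. The deposited intensities had the same array mean within each genotype and batch and a different one between them, which leaves genotype and the authors' scaling inseparable. In bulk liver, fewer cells of a type and less RNA per cell cannot be told apart.

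With the antagonist, 21 of the 50 measured P450 probes changed in wild-type livers, 6 up and 15 down, and 21 changed in ApoE-/- livers, 12 up and 9 down (limma, Benjamini-Hochberg adjusted p under 0.05 over 18285 probes). These are 42% of the members in both genotypes, where 37.3% of all probes were called in wild-type and 29.1% in ApoE-/- livers. The members' share lay close to that of all probes in wild-type livers and above it in ApoE-/- livers, a gap that was not tested. Probes of 1 gene are not separate observations, and 5 of the 12 rises in ApoE-/- livers were on Cyp2a5 probes. With the highest-mean probe per symbol 15 of 35 members were called in wild-type and 13 of 35 in ApoE-/- livers. Of 12976 probes in all, 4981 and 3842 were then called. In wild-type livers 18.4% of all probes fell and 18.9% rose. In ApoE-/- livers 14.9% fell and 14.2% rose. The median log2 change of the members was -0.16 in wild-type livers, against -0.03 over all probes, and -0.04 in ApoE-/- livers, against -0.02. With arrays scaled to equal medians the splits were 7 up and 11 down in wild-type and 13 up and 6 down in ApoE-/- livers, the median of all probes shifted to 0.22 and 0.06, and in wild-type livers 6283 of all probes were then called higher and 1068 lower. Directions of small changes are therefore relative to the scaling.

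The main falls common to both genotypes were in Cyp2d26, Cyp2d40, Cyp3a25 and Cyp2f2, and the common rises in Cyp1b1, Cyp2g1, Cyp2j9 and Cyp3a13. Without the treated arrays of both genotypes, Cyp1b1 and the called Cyp2g1 probe would have failed the detection filter. That these 2 rose in both genotypes is therefore no independent evidence. In all 13 probes were called in the same direction in both effects and 0 in opposite directions, 8 were called in wild-type livers alone, 8 in ApoE-/- livers alone and 21 in neither. A call in one genotype alone does not show a difference between them. The difference itself was called for 5 of 50 member probes, all of Cyp2a5 or Cyp2a12, where 2.33% of all probes were called. All 5 were higher in the ApoE-/- effect, a direction that 0.76% of all probes took, against 1.57% in the other. Of the 5, 4 are probes of Cyp2a5 and are not separate observations. With the highest-mean probe per symbol 2 of 35 members were called, beside 356 of 12976 probes in all.

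**Figure D1:**
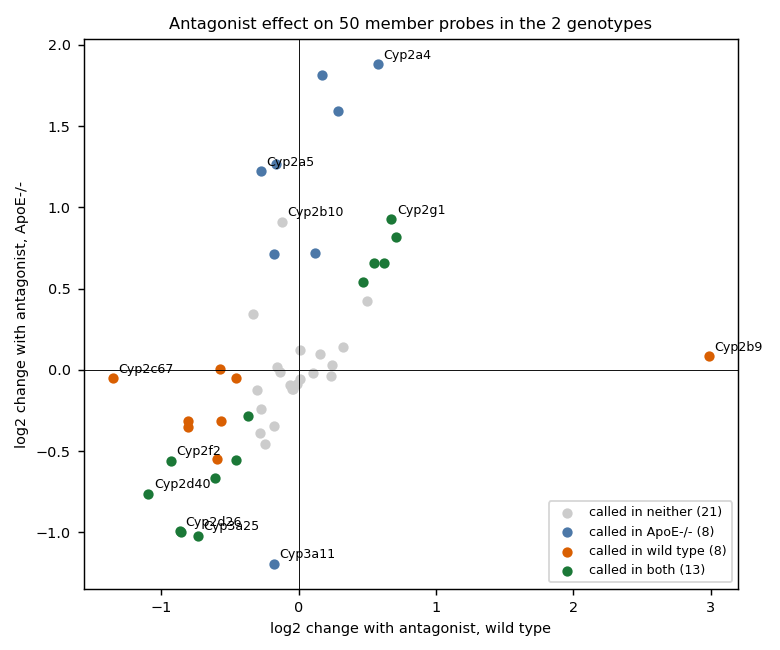
Each point is 1 of the 50 measured P450 probes, with its log2 change on antagonist treatment in wild-type livers on the horizontal axis and in ApoE-/- livers on the vertical axis. Cyp2b9 stands at 2.98 on the horizontal axis, the Cyp2a4 and Cyp2a5 points stand high on the vertical axis, and the 13 points called in both effects lie in the lower left and upper right quadrants.

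**Figure D2:**
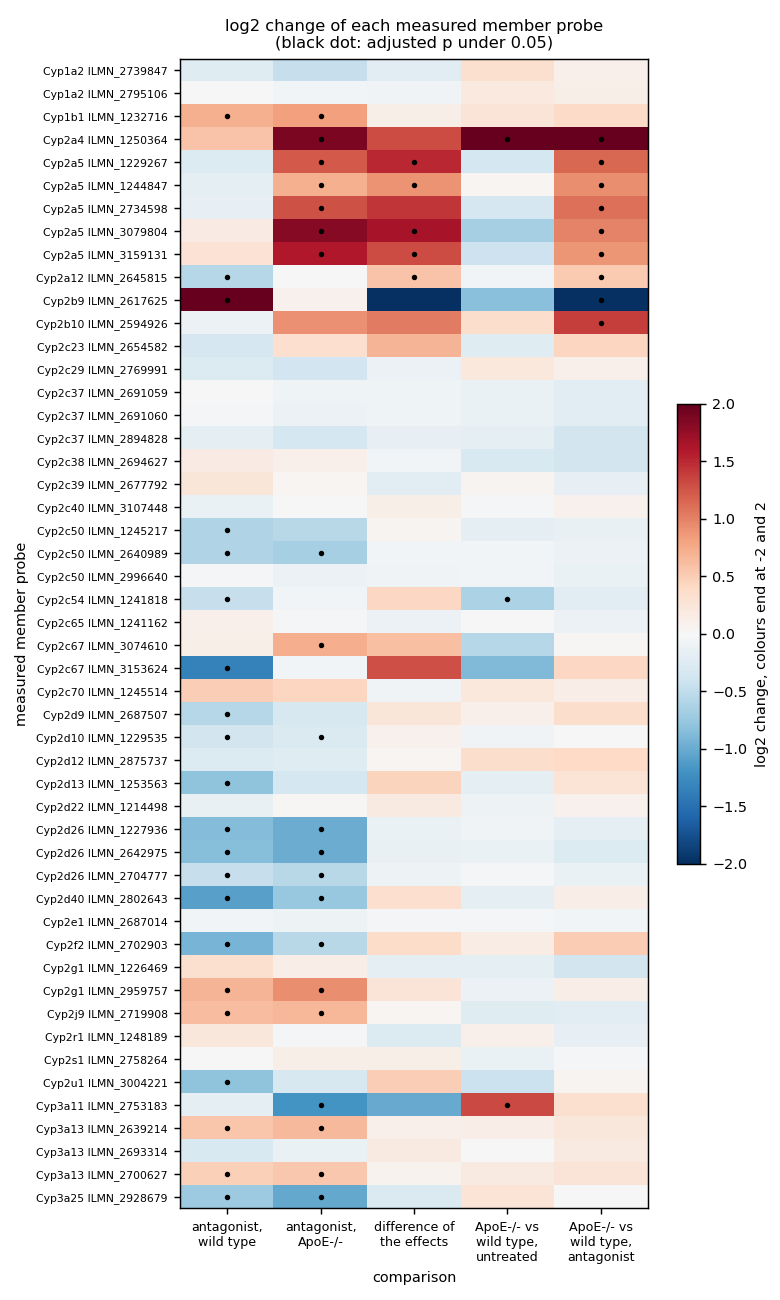
Colour gives the log2 change of each measured P450 probe (rows, by subfamily) in the 5 comparisons (columns), and a black dot marks an adjusted p under 0.05. The Cyp2d rows are blue with dots in both antagonist columns for Cyp2d10, Cyp2d26 and Cyp2d40, and the Cyp2a5 rows carry dots in the ApoE-/- antagonist column.

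The Cyp2a subfamily held the largest genotype difference among the measured members and the largest rises in ApoE-/- livers. Cyp2a4 and Cyp2a5 are close relatives, a testosterone hydroxylase that is higher in female mice and a coumarin hydroxylase that is inducible by liver injury. All values below are normalised log2 signals, listed in the order of replicates 1 to 5.
Cyp2a4 (ILMN_1250364) read 4.48, 4.79, 5.37, 4.44 and 4.49 without and 4.66, 5.33, 4.86, 4.79 and 6.81 with the antagonist in wild-type livers. Cyp2a4 in ApoE-/- livers read 8.01, 8.80, 9.66, 10.94 and 10.38 without and 10.97, 11.51, 11.54, 11.77 and 11.41 with it. Cyp2a4 was detected on 1 of 5 untreated and 4 of 5 treated wild-type arrays and on all 10 ApoE-/- arrays. The ApoE-/- arrays lay above every wild-type array, and within ApoE-/- the treated arrays lay above every untreated one. In untreated livers Cyp2a4 was 4.85 ± 0.44 (standard error, n = 5 against 5) log2 units higher in ApoE-/- than in wild type (adjusted p = 2.4e-07), a fitted difference whose wild-type level rests on 1 detected array and so is no exact fold. In treated livers the difference was 6.15 ± 0.44, or 70.9-fold (adjusted p = 1.18e-08). Within batches the untreated difference was 3.94 in the first and 6.20 in the second, and the treated one 6.39 and 5.79, all called. Cyp2a4 rose by 1.88 ± 0.44 with the antagonist in ApoE-/- livers (3.68-fold, adjusted p = 0.00258), by 2.52 in the first batch and 0.93 in the second, where it was not called (adjusted p = 0.319). The change in wild-type livers was 0.58 ± 0.44 (adjusted p = 0.332), and the 2 effects did not differ past the threshold (adjusted p = 0.342).

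Cyp2a5 had 5 measured probes, all detected on all 20 arrays. All 5 rose with the antagonist in ApoE-/- livers and none was called in wild-type livers.
Cyp2a5 (ILMN_3159131) read 11.75, 12.64, 12.47, 12.45 and 12.69 without and 12.23, 12.46, 12.70, 12.63 and 13.41 with the antagonist in wild-type livers. Cyp2a5 in ApoE-/- livers read 11.45, 11.96, 12.64, 12.07 and 11.79 without and 13.87, 13.62, 14.01, 13.40 and 12.98 with it. Cyp2a5 was higher on every treated than on every untreated ApoE-/- array, while the wild-type groups overlapped. Cyp2a5 (ILMN_3079804) read 7.02, 8.24, 8.18, 8.17 and 8.29 without and 7.94, 7.91, 8.01, 8.06 and 8.81 with the antagonist in wild-type livers. Cyp2a5 in ApoE-/- livers read 6.81, 7.31, 8.08, 7.22 and 7.16 without and 9.31, 9.15, 9.73, 8.82 and 8.65 with it. For this probe too the ApoE-/- groups did not overlap. Cyp2a5 (ILMN_1229267) read 9.29, 10.36, 10.03, 9.87 and 9.88 without and 9.33, 9.31, 9.48, 9.34 and 10.59 with the antagonist in wild-type livers. Cyp2a5 in ApoE-/- livers read 8.88, 9.38, 9.94, 9.65 and 9.81 without and 10.85, 10.80, 11.37, 10.51 and 10.26 with it. Wild-type replicate 5 with the antagonist was the high array of its group on all these probes. Cyp2a5 (ILMN_2734598) read 10.12, 11.08, 10.78, 10.99 and 11.14 without and 10.25, 10.21, 10.39, 10.64 and 11.81 with the antagonist in wild-type livers. Cyp2a5 in ApoE-/- livers read 9.73, 10.24, 10.90, 10.76 and 10.82 without and 11.70, 11.55, 12.30, 11.70 and 11.54 with it. The ApoE-/- groups again stood apart, and replicate 1 was the lowest untreated array in both genotypes. Cyp2a5 (ILMN_1244847) read 12.18, 12.50, 12.54, 12.56 and 12.62 without and 12.20, 11.90, 12.46, 12.10 and 12.85 with the antagonist in wild-type livers. Cyp2a5 in ApoE-/- livers read 12.22, 12.63, 12.68, 12.52 and 12.58 without and 13.12, 13.32, 13.72, 13.12 and 12.90 with it. The 5 treated ApoE-/- arrays lay above all untreated ApoE-/- arrays here as well.

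The rise of Cyp2a5 in ApoE-/- livers was 1.82 ± 0.26 for ILMN_3079804 (3.52-fold, adjusted p = 2.94e-05) and 1.59 ± 0.24 for ILMN_3159131 (3.02-fold, adjusted p = 4.91e-05). The other 3 probes rose by 1.27, 1.22 and 0.71. In the second batch alone these 3 were not called, at 0.83 (adjusted p = 0.147), 0.65 (0.268) and 0.46 (0.248), against 1.56, 1.61 and 0.88 in the first. In wild-type livers the changes ran from -0.28 to 0.29. The difference between the effects was called for 4 probes, at 1.65 (adjusted p = 0.0213), 1.501 (0.0321), 1.31 (0.046) and 0.89 (0.046), and not for the fifth, ILMN_2734598 (1.43, adjusted p = 0.0629). The fifth was called with the replicate number (adjusted p = 0.0217) or the batch (0.0309) as a block and with the authors' processed intensities (0.0481). With slide as a block the call was lost for ILMN_3079804 (adjusted p = 0.0616), ILMN_1244847 (0.0861) and ILMN_3159131 (0.109). With arrays scaled to equal medians no member kept this call, and 11 members were at an unadjusted p under 0.05 in limma. ILMN_3079804 kept it whichever single array was left out, but not in the first batch alone (adjusted p = 0.111) or the second (0.0885). ILMN_1229267 lost it without any of 9 arrays, and ILMN_1244847 and ILMN_3159131 without any of 16 arrays, including treated wild-type replicates 1 to 4 in each case. Untreated livers of the 2 genotypes differed by -0.66 to 0.04 in Cyp2a5, and none of the 5 probes was called.
Treated ApoE-/- livers exceeded treated wild-type livers on all 5 probes, by 0.89 to 1.15. Of these calls, ILMN_2734598, ILMN_3159131 and ILMN_3079804 each were lost without any of treated wild-type replicates 1 to 4 or treated ApoE-/- replicate 3 (adjusted p 0.0514 to 0.115), among other arrays. In the second batch alone none of the 5 was called, with differences of 0.17 to 0.54.

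Cyp2a12, a steroid hydroxylase of the same cluster, went the other way in wild-type livers. Cyp2a12 (ILMN_2645815) read 12.42, 12.56, 12.45, 12.44 and 12.54 without and 11.90, 11.91, 12.09, 11.67 and 11.98 with the antagonist in wild-type livers. Cyp2a12 in ApoE-/- livers read 12.15, 12.55, 12.27, 12.53 and 12.61 without and 12.37, 12.53, 12.26, 12.51 and 12.46 with it. Every treated wild-type array lay below every array of the other 3 groups. Cyp2a12 fell by 0.57 ± 0.10 in wild-type livers (adjusted p = 0.00016) and changed by 0.00 ± 0.10 in ApoE-/- livers (adjusted p = 0.986). The difference between the effects was 0.58 ± 0.15 (adjusted p = 0.0391), a call lost without any of 13 arrays (adjusted p 0.0515 to 0.0835), among them all 5 untreated wild-type arrays. Treated livers differed by 0.52 ± 0.10 between genotypes (adjusted p = 0.00564), a call lost in each batch alone (adjusted p up to 0.154).

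**Figure D3:**
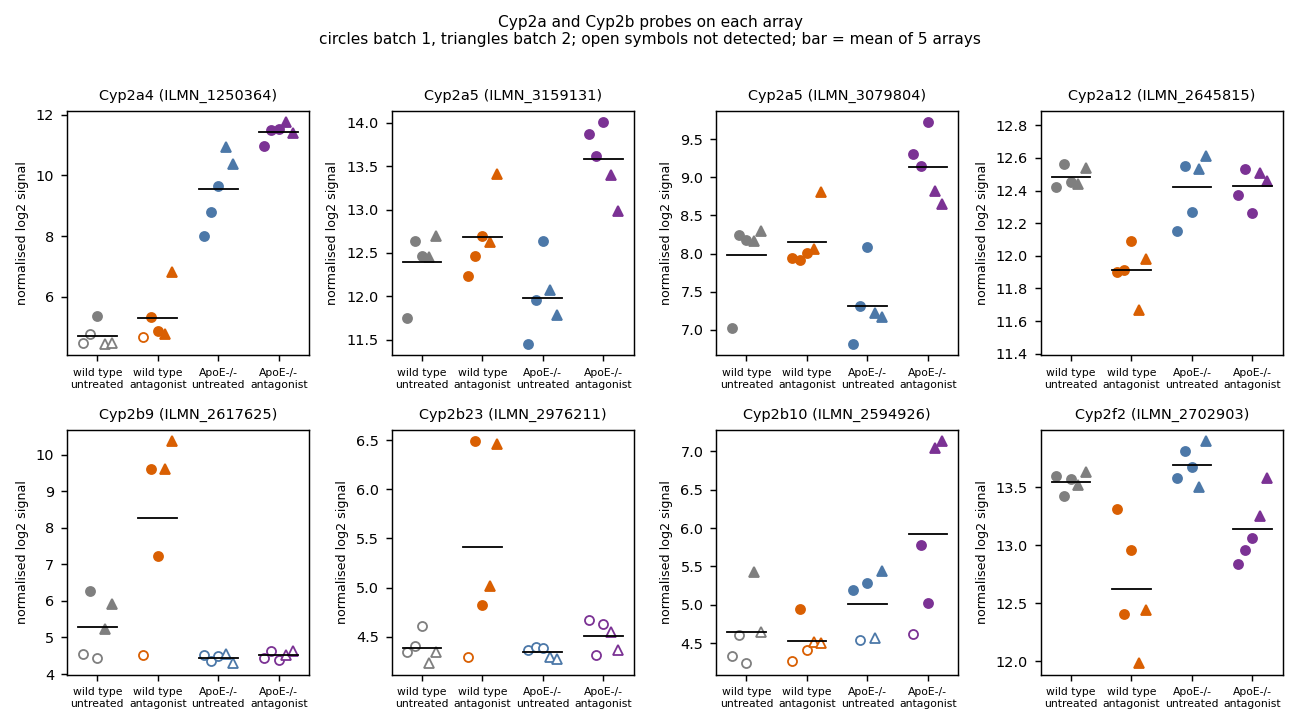
Normalised log2 signal (vertical axis) on each array in the 4 groups (horizontal axis) for probes of the chromosome 7 cluster. Circles are batch 1, triangles batch 2, open symbols are below detection and bars are means of 5 arrays. Cyp2a4 stands above 8 on all ApoE-/- arrays, and Cyp2b9 and Cyp2b23 are high on the same 4 treated wild-type arrays.

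Cyp2b probes were mostly below detection, but Cyp2b9, a steroid hydroxylase that is higher in female mouse liver, rose in wild-type livers. Cyp2b9 (ILMN_2617625) read 4.54, 6.27, 4.43, 5.24 and 5.92 without and 4.52, 9.61, 7.22, 9.60 and 10.37 with the antagonist in wild-type livers. Cyp2b9 in ApoE-/- livers read 4.51, 4.35, 4.48, 4.55 and 4.29 without and 4.44, 4.63, 4.38, 4.52 and 4.63 with it. Cyp2b9 was detected on 3 of 5 untreated and 4 of 5 treated wild-type arrays and on 0 of 10 ApoE-/- arrays. Treated wild-type replicate 1 read as low as the undetected arrays, so the groups overlapped. Without the treated wild-type arrays the probe would have failed the detection filter. The rise of Cyp2b9 in wild-type livers was fitted at 2.98 ± 0.71 (adjusted p = 0.00224). Within batches the rise was 2.03 in the first (adjusted p = 0.109) and 4.41 in the second (adjusted p = 0.00015). Treated wild-type livers were at least 10.9-fold above treated ApoE-/- livers, with each ApoE-/- array set to its lowest detected signal or the probe's signal, whichever was higher (fitted difference -3.74 ± 0.71, adjusted p = 0.00378). In untreated livers the bound was 1.33-fold and the difference was not called (adjusted p = 0.651). With both ApoE-/- groups undetected, no antagonist effect is given for Cyp2b9 there.

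A Cyp2b23 probe that failed the detection filter, ILMN_2976211, was detected on 4 arrays. These were treated wild-type replicates 2 to 5, at 6.49, 4.82, 5.02 and 6.46, the same 4 arrays that carried the Cyp2b9 signal. Cyp2b23 was chosen for this comparison after its values were seen, and whether the probe binds Cyp2b9 transcripts was not tested. The single Cyp2b13 probe was detected on 1 array, of the treated wild-type group. Cyp2b10, the standard target gene of CAR, is inducible by phenobarbital. Cyp2b10 (ILMN_2594926) read 4.34, 4.61, 4.24, 5.43 and 4.65 without and 4.27, 4.95, 4.41, 4.52 and 4.50 with the antagonist in wild-type livers. Cyp2b10 in ApoE-/- livers read 5.20, 4.54, 5.28, 4.57 and 5.44 without and 4.62, 5.78, 5.03, 7.04 and 7.13 with it. Cyp2b10 was detected on 9 of 20 arrays, and treated ApoE-/- replicates 4 and 5 were the highest. Treated ApoE-/- exceeded treated wild-type livers by 1.39 ± 0.38 in Cyp2b10 (adjusted p = 0.0377), by 0.59 in the first batch (adjusted p = 0.394) and 2.57 in the second (adjusted p = 0.00589). The Cyp2b10 call was lost without treated wild-type replicate 1, 3, 4 or 5 or treated ApoE-/- replicate 2, 4 or 5 (adjusted p 0.0633 to 0.124). The antagonist effect in ApoE-/- livers was 0.91 ± 0.38 (adjusted p = 0.0757) for Cyp2b10, and was called with batch as a block (adjusted p = 0.0368) and with equal medians (0.0334). It was 0.13 in the first batch (adjusted p = 0.788) and 2.08 in the second (adjusted p = 0.0175).

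Of the Cyp1 family, 2 genes were measured. Cyp1b1, an oestradiol-hydroxylating P450 found mainly outside hepatocytes, rose with the antagonist in both genotypes, while Cyp1a2, the abundant hepatic enzyme of caffeine and oestradiol oxidation, was not called in any comparison. Cyp1b1 (ILMN_1232716) read 4.89, 4.74, 4.30, 4.46 and 5.31 without and 5.47, 5.53, 5.34, 5.50 and 5.40 with the antagonist in wild-type livers. Cyp1b1 in ApoE-/- livers read 4.78, 5.12, 5.00, 5.25 and 4.87 without and 5.41, 5.88, 5.71, 6.60 and 5.53 with it. Cyp1b1 was detected on 1 untreated and all treated wild-type arrays, and on 3 untreated and all treated ApoE-/- arrays. Without the treated arrays of both genotypes the probe would have failed the detection filter. In both genotypes every treated array lay above every untreated one. The rise of Cyp1b1 was 0.71 ± 0.19 in wild-type (adjusted p = 0.00606) and 0.82 ± 0.19 in ApoE-/- livers (adjusted p = 0.00263), and neither was called in the second batch alone. Cyp1a2 (ILMN_2739847) read 10.94, 10.70, 11.72, 11.28 and 11.61 without and 11.35, 10.69, 11.26, 10.71 and 11.00 with the antagonist in wild-type livers. Cyp1a2 in ApoE-/- livers read 11.43, 11.81, 11.74, 11.46 and 11.39 without and 11.01, 10.68, 10.91, 11.24 and 11.70 with it. On this probe the groups of Cyp1a2 overlapped in both genotypes. Cyp1a2 (ILMN_2795106) read 11.16, 10.97, 11.72, 11.13 and 11.45 without and 11.81, 11.00, 11.67, 10.91 and 11.11 with the antagonist in wild-type livers. Cyp1a2 in ApoE-/- livers read 11.41, 11.80, 11.81, 11.23 and 11.16 without and 11.61, 11.21, 11.24, 11.41 and 11.66 with it. The changes of Cyp1a2 with the antagonist were -0.24 and 0.01 in wild-type and -0.46 and -0.06 in ApoE-/- livers for the 2 probes, with adjusted p of 0.0983 to 0.967. The Cyp1a1 probe was below detection on all 20 arrays.

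Cyp2c enzymes epoxidise arachidonic acid and oxidise many drugs. Of 16 Cyp2c probes 4 fell and 0 rose in wild-type livers, and 1 fell and 1 rose in ApoE-/- livers. Over all probes 18.4% fell and 18.9% rose in wild-type livers, and 14.9% fell and 14.2% rose in ApoE-/- livers. The Cyp2c share called in either direction was below that of all probes in both genotypes (37.3% and 29.1%). Of the 4 falls, 2 were on probes of Cyp2c50. Probes of one gene often differed. Cyp2c67 had 2 probes. Cyp2c67 (ILMN_3153624) read 9.29, 9.68, 9.47, 9.45 and 9.46 without and 8.86, 7.75, 8.07, 7.79 and 8.15 with the antagonist in wild-type livers. Cyp2c67 in ApoE-/- livers read 7.96, 8.03, 7.79, 9.50 and 9.65 without and 7.99, 8.45, 8.35, 8.24 and 9.64 with it. On this Cyp2c67 probe all treated wild-type arrays lay below all untreated ones. The change was -1.35 ± 0.34 (2.54-fold lower, adjusted p = 0.00372), at -1.25 in the first batch and -1.49 in the second. Cyp2c67 (ILMN_3074610) read 12.31, 12.42, 12.17, 12.16 and 12.33 without and 12.39, 12.10, 12.32, 12.38 and 12.79 with the antagonist in wild-type livers. Cyp2c67 in ApoE-/- livers read 11.35, 11.01, 11.12, 12.36 and 12.66 without and 12.31, 12.47, 12.34, 12.30 and 12.68 with it. On the second probe the wild-type change of Cyp2c67 was 0.12 ± 0.24 (adjusted p = 0.739). In untreated ApoE-/- livers both Cyp2c67 probes were low on replicates 1 to 3 and high on replicates 4 and 5, which differ in batch and slide. The second probe rose by 0.72 ± 0.24 in ApoE-/- livers (adjusted p = 0.0258), by 1.22 in the first batch and -0.02 in the second (adjusted p = 0.966), so its direction turned there. The call was also lost without treated replicate 2 or 5 or untreated replicate 1, 2 or 3 (adjusted p 0.0508 to 0.0869). For the first probe the ApoE-/- change was -0.05 ± 0.34 (adjusted p = 0.939). With slide as a block, untreated ApoE-/- livers were lower than wild type on both Cyp2c67 probes, by -1.50 (adjusted p = 0.00321) and -1.07 (adjusted p = 7.03e-05), where the fit without it gave -0.89 (adjusted p = 0.181) and -0.58 (adjusted p = 0.222). The slide block also called the difference between the antagonist effects on both probes, at 1.91 (adjusted p = 0.00988) and 1.09 (adjusted p = 0.00298), against 1.30 (adjusted p = 0.193) and 0.60 (adjusted p = 0.445) without it. That block takes untreated ApoE-/- replicates 4 and 5, the high ones, out of their group's level. The calls it added therefore rest on replicates 1 to 3 of that group and are no correction for slide.

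Cyp2c50 had 3 probes, of which the brightest was not called. Cyp2c50 (ILMN_2996640) read 13.67, 13.80, 13.79, 14.11 and 14.13 without and 13.74, 13.54, 13.93, 14.02 and 14.04 with the antagonist in wild-type livers. Cyp2c50 in ApoE-/- livers read 13.50, 13.61, 14.01, 13.93 and 14.17 without and 13.73, 13.58, 13.58, 13.89 and 13.84 with it. The groups of this Cyp2c50 probe overlapped. Cyp2c50 (ILMN_2640989) read 7.58, 7.75, 8.0, 8.23 and 8.09 without and 7.44, 6.91, 7.32, 7.66 and 7.28 with the antagonist in wild-type livers. Cyp2c50 in ApoE-/- livers read 7.74, 7.33, 7.97, 7.90 and 8.42 without and 6.76, 6.83, 6.97, 7.46 and 8.01 with it. On this one all but 1 treated wild-type array, replicate 4, lay below every untreated array. Cyp2c50 (ILMN_1245217) read 9.49, 9.68, 9.89, 10.19 and 10.22 without and 9.50, 8.83, 9.27, 9.57 and 9.33 with the antagonist in wild-type livers. Cyp2c50 in ApoE-/- livers read 9.42, 9.20, 9.58, 10.08 and 10.23 without and 8.89, 8.77, 8.88, 9.38 and 9.85 with it. The wild-type groups of the third probe overlapped in 2 treated arrays. In wild-type livers the Cyp2c50 changes were -0.05 (adjusted p = 0.832), -0.61 (0.0353) and -0.60 (0.0402), in the order of these probes. In ApoE-/- livers they were -0.12 (adjusted p = 0.584), -0.67 (0.0272) and -0.55 (0.0713), and the last was called with the replicate block (adjusted p = 0.00392). The 2 Cyp2c50 calls in wild-type livers were lost without treated replicate 2, 3 or 5 or untreated replicate 3, 4 or 5 (adjusted p 0.057 to 0.118). The ApoE-/- call was lost without treated replicate 1, 2 or 3 or untreated replicate 3 or 5 (adjusted p 0.0535 to 0.0857).

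Cyp2c54, another epoxygenase, was the 1 member called lower in untreated ApoE-/- livers. Cyp2c54 (ILMN_1241818) read 8.91, 8.94, 8.93, 8.57 and 8.39 without and 8.67, 8.62, 8.55, 7.80 and 7.81 with the antagonist in wild-type livers. Cyp2c54 in ApoE-/- livers read 7.74, 8.22, 8.37, 8.02 and 8.21 without and 8.09, 8.22, 8.20, 7.85 and 7.96 with it. All untreated ApoE-/- arrays lay below all untreated wild-type arrays of Cyp2c54, while treated and untreated wild-type arrays overlapped. Cyp2c54 was 0.63 ± 0.18 log2 units lower in untreated ApoE-/- livers (fitted -0.63, adjusted p = 0.0411), and fell by 0.46 ± 0.18 with the antagonist in wild type (adjusted p = 0.0474). Both of these comparisons use the untreated wild-type arrays. The genotype call was lost without untreated wild-type replicate 1, 2 or 3 or untreated ApoE-/- replicate 1, 2, 4 or 5 (adjusted p 0.0557 to 0.12), and the antagonist call without treated replicate 4 or 5 or untreated replicate 1, 2 or 3 (adjusted p 0.0988 to 0.152).

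The remaining Cyp2c members were not called in any comparison of the main fit, which used all 20 arrays and no block. Cyp2c37 had 3 probes with changes of -0.18 to -0.01 in wild-type and -0.35 to -0.09 in ApoE-/- livers. Cyp2c29 changed by -0.28 and -0.39, and Cyp2c23, an epoxygenase, by -0.33 (adjusted p = 0.103) and 0.34 (adjusted p = 0.105). With slide as a block both Cyp2c23 changes were called, at -0.33 (adjusted p = 0.0167) and 0.68 (adjusted p = 0.000632), and the difference between them was 1.01 (adjusted p = 0.00268). In that fit the untreated ApoE-/- level rests on its first-batch arrays alone, so the 0.68 and the 1.01 are no correction for slide. In ApoE-/- livers the Cyp2c23 change was 0.66 in the first batch (adjusted p = 0.00637) and -0.13 in the second (adjusted p = 0.624). Cyp2c70, which makes muricholic acids and so sets the mouse bile acid pool, changed by 0.50 ± 0.21 in wild-type livers (adjusted p = 0.074) and was called with the replicate block (adjusted p = 0.0199). In ApoE-/- livers the Cyp2c70 change was 0.42 ± 0.21 (adjusted p = 0.15). Cyp2c38, Cyp2c39, Cyp2c40 and Cyp2c65 were detected on only part of the arrays, with changes between -0.14 and 0.25 in the 2 antagonist effects.

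Cyp2d enzymes oxidise steroids and amine drugs. In this subfamily 7 of 9 probes fell in wild-type livers and 5 of 9 in ApoE-/- livers, and 0 rose in either. Of all probes 18.4% fell in wild-type and 14.9% in ApoE-/- livers, and the gap was not tested. The 3 Cyp2d26 probes are among the falls of each genotype and are not separate observations. Cyp2d26 fell on all 3 of its probes in both genotypes. Cyp2d26 (ILMN_2642975) read 11.31, 11.35, 11.32, 11.11 and 11.22 without and 10.66, 10.38, 10.38, 10.13 and 10.51 with the antagonist in wild-type livers. Cyp2d26 in ApoE-/- livers read 11.17, 11.38, 11.12, 10.97 and 11.05 without and 10.10, 10.14, 9.97, 10.09 and 10.41 with it. In both genotypes every treated array of Cyp2d26 lay below every untreated one. Cyp2d26 (ILMN_1227936) read 11.31, 11.37, 11.32, 11.09 and 11.07 without and 10.54, 10.46, 10.41, 10 and 10.45 with the antagonist in wild-type livers. Cyp2d26 in ApoE-/- livers read 11.11, 11.33, 11.34, 10.98 and 11.06 without and 10.18, 10.14, 10.06, 10.10 and 10.38 with it. The same separation held on this probe. The changes were -0.85 ± 0.11 and -0.86 ± 0.11 in wild-type livers (adjusted p = 3.41e-06 and 3.99e-06) and -0.997 ± 0.11 and -0.992 ± 0.11 in ApoE-/- livers (adjusted p = 1.97e-06 and 2.68e-06). Both probes were called in each batch alone. The third Cyp2d26 probe, ILMN_2704777, changed by -0.46 (adjusted p = 0.00256) and -0.55 (adjusted p = 0.000712).

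Cyp2d40 showed the same directions. Cyp2d40 (ILMN_2802643) read 11.51, 11.17, 11.20, 11.29 and 11.02 without and 10.54, 9.69, 10.34, 10.07 and 10.08 with the antagonist in wild-type livers. Cyp2d40 in ApoE-/- livers read 10.90, 11.29, 11.12, 10.93 and 10.96 without and 10.09, 9.81, 9.97, 10.60 and 10.91 with it. Treated and untreated wild-type arrays of Cyp2d40 did not overlap, and in ApoE-/- livers treated replicate 5 reached the untreated range. Cyp2d40 changed by -1.09 ± 0.18 in wild-type (2.13-fold lower, adjusted p = 7.55e-05) and by -0.76 ± 0.18 in ApoE-/- livers (adjusted p = 0.00328), where the batches gave -1.15 and -0.18 (second batch adjusted p = 0.508). Cyp2d13 changed by -0.80 in wild-type livers (adjusted p = 0.00128) and by -0.35 in ApoE-/- livers (adjusted p = 0.152). Cyp2d9, a testosterone hydroxylase higher in male mice, changed by -0.56 (adjusted p = 0.00939) and -0.32 (adjusted p = 0.159). The wild-type call of Cyp2d9 was lost in the first batch alone (adjusted p = 0.138). Cyp2d10 fell in both, with changes of -0.37 (adjusted p = 0.00572) and -0.29 (adjusted p = 0.0335), the second lost without any of treated replicates 2 to 5 or untreated replicates 1 to 3 (adjusted p 0.0563 to 0.0861). Cyp2d22 and Cyp2d12 were not called in any comparison, with antagonist effects between -0.28 and 0.02. No Cyp2d probe was called between genotypes, where the 9 differences ran from -0.20 to 0.36 in untreated and from -0.27 to 0.39 in treated livers. The differences between the antagonist effects ran from -0.15 to 0.45 and were not called.

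The Cyp3a enzymes oxidise a broad range of drugs and steroids. Cyp3a25 fell in both genotypes, Cyp3a11 fell in ApoE-/- livers, and Cyp3a13 rose in both. Cyp3a11, the major PXR target of mouse liver, differed between genotypes in the untreated groups. Cyp3a11 (ILMN_2753183) read 11.70, 12.42, 11.73, 12.05 and 11.55 without and 10.86, 12.77, 11.76, 11.64 and 11.52 with the antagonist in wild-type livers. Cyp3a11 in ApoE-/- livers read 13.33, 13.26, 13.29, 13.15 and 13.07 without and 12.32, 12.29, 11.89, 12.29 and 11.34 with it. Every untreated ApoE-/- array lay above every other Cyp3a11 array. Cyp3a11 was 1.33 ± 0.26 log2 units higher in untreated ApoE-/- than in untreated wild-type livers (2.51-fold, adjusted p = 0.00232), at 1.34 and 1.31 within the batches, where neither was called (adjusted p = 0.0579 and 0.1). It fell by 1.19 ± 0.26 with the antagonist in ApoE-/- livers (fitted change -1.19, 2.29-fold lower, adjusted p = 0.00127) and was called in both batches alone. Both comparisons share the untreated ApoE-/- arrays. In wild-type livers the Cyp3a11 change was -0.18 ± 0.26 (adjusted p = 0.632), treated livers differed by 0.31 ± 0.26 between genotypes (adjusted p = 0.637), and the difference of effects was -1.01 ± 0.36 (adjusted p = 0.166).

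Cyp3a25 (ILMN_2928679) read 11.34, 11.38, 11.55, 11.33 and 11.14 without and 10.82, 10.52, 10.61, 10.33 and 10.80 with the antagonist in wild-type livers. Cyp3a25 in ApoE-/- livers read 11.48, 11.78, 11.70, 11.61 and 11.55 without and 10.60, 10.51, 10.28, 10.77 and 10.88 with it. In both genotypes all treated Cyp3a25 arrays lay below all untreated ones. Cyp3a25 changed by -0.73 ± 0.12 in wild-type (adjusted p = 6.43e-05) and -1.02 ± 0.12 in ApoE-/- livers (adjusted p = 4.22e-06). Cyp3a13 rose on 2 of 3 probes. Cyp3a13 (ILMN_2639214) read 12.02, 12.02, 11.99, 11.73 and 11.60 without and 12.41, 12.54, 12.41, 12.21 and 12.54 with the antagonist in wild-type livers. Cyp3a13 in ApoE-/- livers read 11.63, 12.18, 12.24, 11.87 and 12.06 without and 12.48, 12.61, 12.75, 12.72 and 12.71 with it. Treated arrays of this Cyp3a13 probe lay above untreated arrays in both genotypes without overlap. Cyp3a13 (ILMN_2700627) read 11.28, 10.93, 10.87, 10.51 and 10.49 without and 11.35, 11.37, 11.13, 11.12 and 11.45 with the antagonist in wild-type livers. Cyp3a13 in ApoE-/- livers read 10.58, 11.04, 11.26, 10.97 and 11.13 without and 11.36, 11.46, 11.69, 11.54 and 11.65 with it. Here the groups overlapped in wild-type livers only, where untreated replicate 1 was high. Cyp3a13 (ILMN_2693314) read 8.06, 7.85, 7.70, 7.35 and 7.13 without and 7.83, 7.52, 7.18, 6.95 and 7.09 with the antagonist in wild-type livers. Cyp3a13 in ApoE-/- livers read 7.13, 7.71, 7.87, 7.65 and 7.73 without and 7.20, 7.56, 7.52, 7.33 and 7.85 with it. The third Cyp3a13 probe showed no such order. The rise of Cyp3a13 was 0.55 ± 0.12 (adjusted p = 0.00102) and 0.47 ± 0.14 (adjusted p = 0.0137) in wild-type livers and 0.66 ± 0.12 (adjusted p = 0.00031) and 0.54 ± 0.14 (adjusted p = 0.00702) in ApoE-/- livers. The third probe changed by -0.30 (adjusted p = 0.226) and -0.13 (adjusted p = 0.679).

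**Figure D4:**
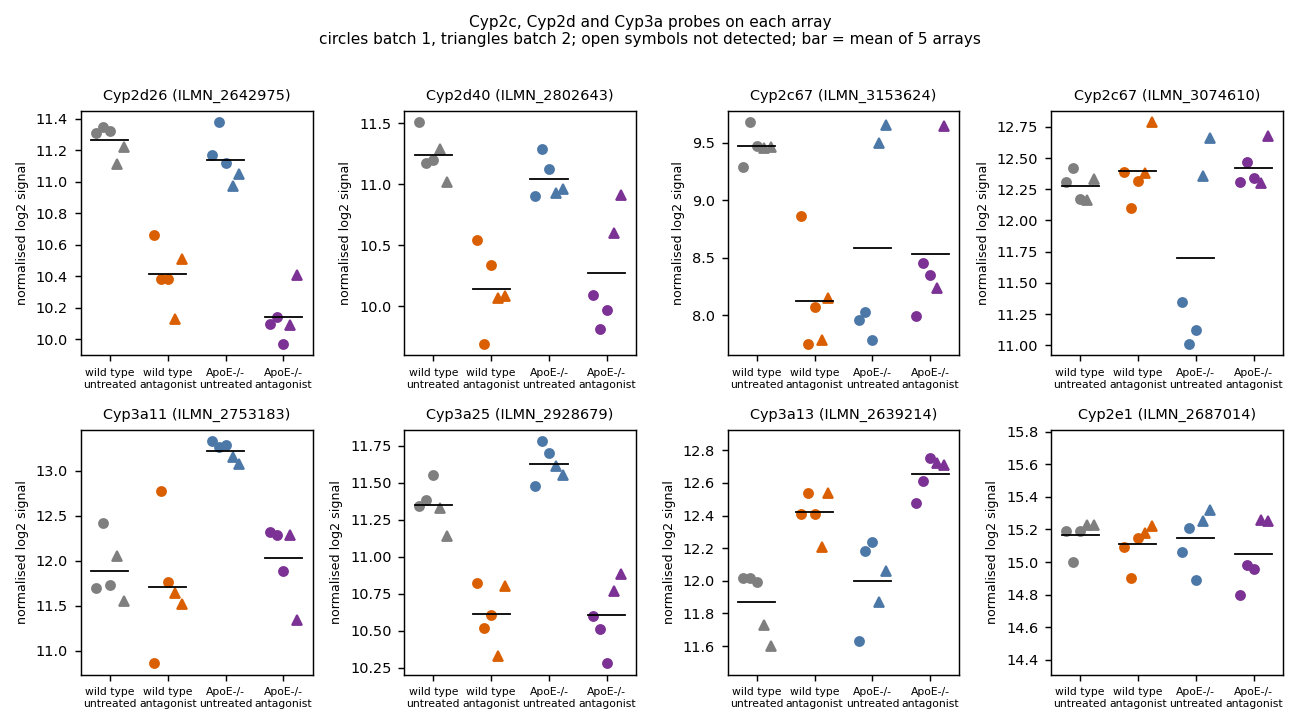
Normalised log2 signal (vertical axis) on each array in the 4 groups (horizontal axis) for Cyp2d26, Cyp2d40, both Cyp2c67 probes, Cyp3a11, Cyp3a25, Cyp3a13 and Cyp2e1, with circles for batch 1, triangles for batch 2 and bars for means of 5 arrays. Cyp3a11 is highest on the 5 untreated ApoE-/- arrays, and both Cyp2c67 probes separate the untreated ApoE-/- circles from the triangles.

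Among the subfamilies with 1 measured gene, Cyp2f2, a naphthalene-oxidising enzyme of lung club cells and of periportal hepatocytes, fell in both genotypes. Cyp2f2 (ILMN_2702903) read 13.60, 13.43, 13.57, 13.52 and 13.63 without and 13.31, 12.41, 12.96, 11.98 and 12.44 with the antagonist in wild-type livers. Cyp2f2 in ApoE-/- livers read 13.58, 13.81, 13.68, 13.50 and 13.90 without and 12.84, 12.96, 13.06, 13.25 and 13.58 with it. Treated wild-type arrays of Cyp2f2 lay below all untreated ones, and in ApoE-/- livers treated replicate 5 reached the untreated range. Cyp2f2 changed by -0.93 ± 0.19 in wild-type (adjusted p = 0.000458) and -0.56 ± 0.19 in ApoE-/- livers (adjusted p = 0.027). The ApoE-/- call was lost with slide as a block (adjusted p = 0.0966) and without treated replicate 1, 2 or 3 or untreated replicate 2 or 5 (adjusted p 0.0563 to 0.0729). Cyp2u1, which hydroxylates long-chain fatty acids, was near the detection limit. Cyp2u1 (ILMN_3004221) read 5.03, 5.28, 5.61, 5.54 and 5.18 without and 4.70, 4.45, 4.54, 4.38 and 4.55 with the antagonist in wild-type livers. Cyp2u1 in ApoE-/- livers read 4.83, 5.28, 5.29, 4.44 and 4.65 without and 4.38, 4.66, 4.60, 4.28 and 5.01 with it. Cyp2u1 was detected on 4 of 5 untreated and 0 of 5 treated wild-type arrays, and on 2 untreated and 1 treated ApoE-/- arrays. Without the untreated wild-type arrays the probe would have failed the detection filter, so its fall there is no independent evidence. Cyp2u1 was at least 1.46-fold lower with the antagonist in wild-type livers (fitted change -0.81 ± 0.17, adjusted p = 0.000614). Its change in ApoE-/- livers was -0.31 ± 0.17 (adjusted p = 0.173). With slide as a block that change was -0.56 (adjusted p = 0.0217), with the untreated ApoE-/- level resting on its first-batch arrays alone.

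Cyp2j9, of the arachidonic acid epoxygenases, rose in both genotypes. Cyp2j9 (ILMN_2719908) read 6.20, 6.50, 6.61, 6.54 and 6.41 without and 6.90, 7.46, 7.25, 6.83 and 6.95 with the antagonist in wild-type livers. Cyp2j9 in ApoE-/- livers read 5.71, 6.25, 6.23, 6.49 and 6.34 without and 6.93, 6.74, 6.99, 7.12 and 6.54 with it. Treated Cyp2j9 arrays lay above untreated arrays in both genotypes. The rise of Cyp2j9 was 0.62 ± 0.15 (adjusted p = 0.00236) in wild-type and 0.66 ± 0.15 (adjusted p = 0.00213) in ApoE-/- livers. Neither rise was called in the second batch alone (adjusted p = 0.17 and 0.227). Cyp2g1, known from olfactory tissue, was weak. Cyp2g1 (ILMN_2959757) read 4.47, 4.56, 5.00, 5.14 and 4.70 without and 5.01, 4.87, 5.90, 5.22 and 6.24 with the antagonist in wild-type livers. Cyp2g1 in ApoE-/- livers read 4.48, 4.47, 4.45, 4.81 and 5.10 without and 6.18, 5.24, 6.14, 5.41 and 4.97 with it. Cyp2g1 was detected on 2 untreated and 5 treated wild-type arrays, and on 1 untreated and 5 treated ApoE-/- arrays. Without the treated arrays of both genotypes this probe would have failed the detection filter. Cyp2g1 (ILMN_1226469) read 4.51, 4.46, 4.39, 5.21 and 4.81 without and 4.91, 4.62, 5.02, 5.07 and 5.36 with the antagonist in wild-type livers. Cyp2g1 in ApoE-/- livers read 4.62, 4.52, 4.33, 4.42 and 4.60 without and 5.01, 4.58, 4.69, 4.41 and 4.49 with it. The second Cyp2g1 probe was detected on 4 treated wild-type arrays and on 1 array each of the untreated wild-type and treated ApoE-/- groups. On the first probe Cyp2g1 rose by 0.68 ± 0.26 in wild-type livers (adjusted p = 0.0464) and by 0.93 ± 0.26 in ApoE-/- livers (adjusted p = 0.01), and on the second it changed by 0.32 (adjusted p = 0.116) and 0.14 (adjusted p = 0.565). The wild-type Cyp2g1 call was lost without treated replicate 3, 4 or 5 or untreated replicate 1, 2 or 5 (adjusted p 0.0509 to 0.153).

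Cyp2e1, the ethanol-oxidising enzyme of pericentral hepatocytes, changed by -0.06 ± 0.11 in wild-type (adjusted p = 0.705) and -0.09 ± 0.11 in ApoE-/- livers (adjusted p = 0.571). Cyp2r1, which hydroxylates vitamin D, changed by 0.23 and -0.04, and Cyp2s1 by 0.01 and 0.12, with 0 of these 3 genes called in any comparison.

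Between genotypes, 3 of 50 members were called in untreated livers, Cyp2a4 and Cyp3a11 higher and Cyp2c54 lower in ApoE-/-, where 4.67% of all probes were called (3.41% higher and 1.25% lower). In treated livers 9 were called, where 4.41% of all probes were (2.56% higher and 1.84% lower): Cyp2a4, the 5 Cyp2a5 probes, Cyp2a12 and Cyp2b10 higher and Cyp2b9 lower. The 5 Cyp2a5 probes share a gene and are not separate observations. With the highest-mean probe per symbol 5 of 35 members were called in treated livers, beside 659 of 12976 probes in all. The untreated and treated comparisons share no arrays, and Cyp2a4 was called in both.

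Genes that act on or with these enzymes are read here against all probes, of which 18.4% fell and 18.9% rose in wild-type livers and 14.9% fell and 14.2% rose in ApoE-/- livers. Of 29 measured regulators 9 fell and 3 rose in wild-type livers, and 7 fell and 3 rose in ApoE-/- livers, with median changes of -0.28 and -0.08. The share called in either direction was near the 37.3% and 29.1% of all probes. Ppara, the fatty acid receptor, changed by -1.29 ± 0.13 in wild-type (adjusted p = 9.07e-08) and -0.45 ± 0.13 in ApoE-/- livers (adjusted p = 0.0111), and the difference of 0.84 ± 0.18 was called (adjusted p = 0.015). Foxa1, a pioneer factor of liver chromatin, changed by -1.48 (adjusted p = 3.4e-06) and -1.28 (adjusted p = 4.39e-05). Nr1i3, the CAR gene, changed by -0.91 (adjusted p = 1.01e-05) and -0.35 (adjusted p = 0.0475), while Nr1i2, the PXR gene, changed by -0.38 (adjusted p = 0.0555) and -0.08 (adjusted p = 0.743). Esrrg, an orphan receptor, fell in both, with changes of -0.95 and -0.87, and Nr1h3, the liver X receptor alpha gene, rose by 0.74 and 0.48. Ahr was below detection on all 20 arrays, and none of the 5 measured members of the Ahr battery other than Cyp1 was called in either antagonist effect (medians -0.13 and -0.02).

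Of the electron donors and haem enzymes 6 of 17 fell and 4 rose in wild-type livers, and 3 fell and 3 rose in ApoE-/- livers. Hmox1, which degrades haem, rose by 2.95 ± 0.26 in wild-type (adjusted p = 2.64e-08) and 1.14 ± 0.26 in ApoE-/- livers (adjusted p = 0.0025), with a called difference of -1.81 ± 0.37 (adjusted p = 0.0124). Cpox, of haem synthesis, changed by -1.54 (adjusted p = 7.15e-07) and -1.01 (adjusted p = 0.000212). Fech, which inserts iron into haem, changed by -0.85 (adjusted p = 0.0072) and -0.999 (adjusted p = 0.00291). Alas1, the first enzyme of haem synthesis, changed by -1.30 in wild-type (adjusted p = 0.000164) and -0.10 in ApoE-/- livers (adjusted p = 0.811). Cyb5r1, a cytochrome b5 reductase, rose by 0.69 in wild-type livers (adjusted p = 0.000112) and changed by -0.22 in ApoE-/- livers, a called difference (-0.92, adjusted p = 0.00609).

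**Figure D5:**
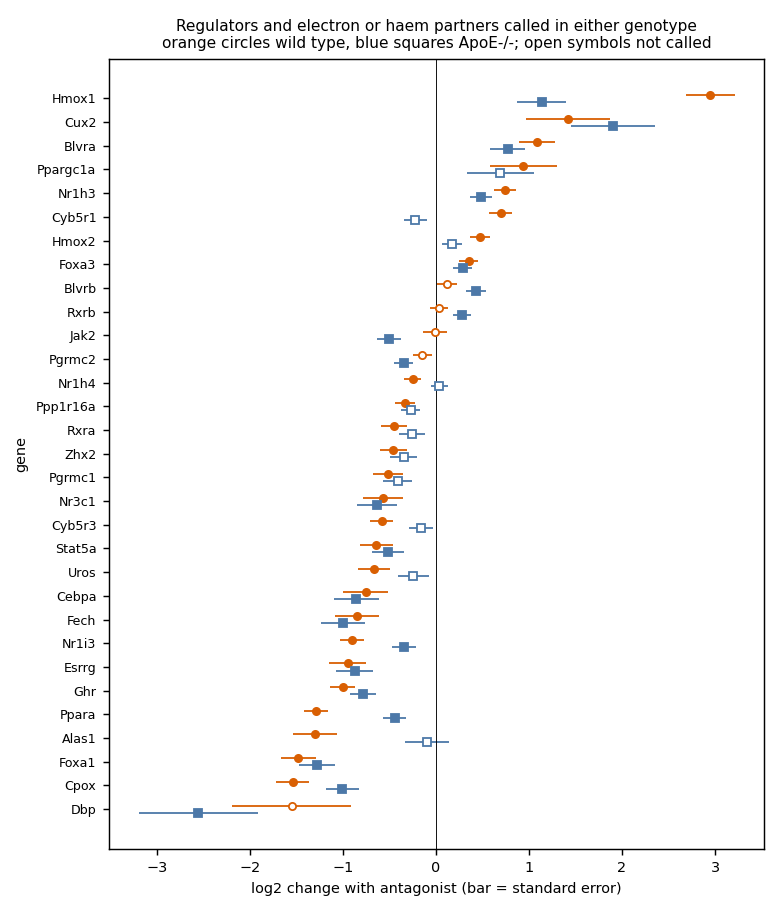
Log2 change with the antagonist (horizontal axis, with its standard error) for regulators and electron or haem partners (vertical axis) called in at least 1 genotype, with orange circles for wild type, blue squares for ApoE-/- and open symbols where not called. Hmox1 stands at 2.95 in wild type and 1.14 in ApoE-/-, and Foxa1 and Cpox are below -1 in both.

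Of 10 measured regulators of sex-biased liver genes 3 fell and 1 rose in each genotype, again near the 37.3% of all probes called in wild-type livers and beside 29.1% in ApoE-/- livers. Ghr, the growth hormone receptor, changed by -1.01 (adjusted p = 6.61e-06) and -0.79 (adjusted p = 0.000206). Cux2, a repressor that is higher in female liver, rose by 1.42 (adjusted p = 0.0173) and 1.90 (adjusted p = 0.00307). Stat5a, a transducer of the growth hormone signal, fell in both, with changes of -0.64 and -0.52. Zhx2, a repressor, changed by -0.46 in wild-type livers (adjusted p = 0.0151), and the kinase Jak2 by -0.51 in ApoE-/- livers (adjusted p = 0.00434). Among the female-biased P450 genes listed, 2 of 7 measured rose in each genotype and 0 fell. Of all probes 18.9% rose in wild-type and 14.2% in ApoE-/- livers, and the gap was not tested. The genes that rose were Cyp2b9 in wild-type livers, Cyp2a4 in ApoE-/- livers and, in both, Cyp17a1 (2.85 and 2.31), a steroid hydroxylase outside the 3 families. Of 3 measured male-biased genes Cyp2d9 and Cyp2u1 fell in wild-type livers and 0 were called in ApoE-/- livers by limma. Over all probes 18.4% fell in wild-type and 14.9% in ApoE-/- livers. Cyp2b9 and Cyp2u1 passed the detection filter only through the wild-type group where each was high. Neither therefore adds independent support to these counts.

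Of 16 measured CAR and PXR targets other than P450 genes 9 fell and 2 rose in wild-type livers, and 6 fell and 2 rose in ApoE-/- livers. For this and the next 2 lists, 18.4% of all probes fell and 18.9% rose in wild-type livers. In ApoE-/- livers 14.9% of all probes fell and 14.2% rose. The conjugating enzymes Ugt1a1, Ugt2b34 and Ugt2b35 fell in both, with changes of -0.87, -1.24 and -0.91 in wild-type and -0.43, -0.98 and -1.03 in ApoE-/- livers. The retinal oxidiser Aldh1a1 changed by -1.07 in wild-type livers (adjusted p = 2.28e-05) and by -0.36 in ApoE-/- livers (adjusted p = 0.108). The glutathione transferases Gstm3 and Gstm1 rose in both, by 0.55 and 0.78 in wild-type and 1.14 and 0.76 in ApoE-/- livers. Of 18 pericentral hepatocyte genes other than P450 genes 1 fell and 3 rose in wild-type livers and 3 fell and 1 rose in ApoE-/- livers. Of these Aldh3a2, a fatty aldehyde dehydrogenase, changed by -1.72 and -1.29. The amino acid transporter Slc1a4 rose by 1.49 in wild-type livers, with 0.49 in ApoE-/- livers (adjusted p = 0.108), and the ribonuclease Ang by 0.44, with 0.35 (adjusted p = 0.063). Sp5, a Wnt target, changed by -0.79 in ApoE-/- and 0.10 in wild-type livers, and the genotypes' changes differed (adjusted p = 0.0319). Of 13 periportal genes 1 fell and 5 rose in wild-type livers, and 2 fell and 4 rose in ApoE-/- livers. Arg1, of the urea cycle, rose by 0.57 and 0.46. Cps1, of the same cycle, rose by 0.68 and 0.51, and Ass1 by 0.65 and 0.55. Tat, which breaks down tyrosine, rose by 1.10 in ApoE-/- livers and changed by -0.27 in wild-type livers, and the genotypes' changes differed (adjusted p = 0.0351). Hsd17b6, a steroid dehydrogenase, fell in both, with changes of -0.98 and -1.98.

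Markers of liver cell types were counted in the same comparisons. Over all probes 18.9% rose and 18.4% fell in wild-type livers, and 14.2% rose and 14.9% fell in ApoE-/- livers. Between untreated livers 3.41% were higher and 1.25% lower in ApoE-/-. Some counts below, such as the neutrophil rises in ApoE-/- livers and the hepatocyte rises in wild-type livers, were under these shares. Of 15 measured Kupffer cell and macrophage markers 11 rose and 2 fell with the antagonist in wild-type livers, and 9 rose and 0 fell in ApoE-/- livers, while 12 were higher in untreated ApoE-/- than wild-type livers and 1 lower. Their summed signal was 4890 to 7500 in untreated and 19200 to 25200 in treated wild-type livers, and 17400 to 22800 and 22300 to 32100 in ApoE-/- livers. The range of untreated ApoE-/- livers overlapped that of treated wild-type livers. Neutrophil markers rose for 6 of 9 in wild-type and 1 of 9 in ApoE-/- livers, with sums of 229 to 382, 676 to 1470, 561 to 887 and 554 to 1270 in the same order of groups. T and NK cell markers rose for 4 and 5 of 6, with sums of 138 to 173, 226 to 287, 142 to 168 and 276 to 399, and both measured B cell markers rose in both genotypes, with sums of 436 to 991, 888 to 1530, 1140 to 1570 and 1910 to 3340. Endothelial markers rose for 6 of 12 in wild-type livers (3450 to 4890 and 4990 to 6370), and 3 rose and 3 fell in ApoE-/- livers (4750 to 5240 and 4570 to 5820). Stellate cell and fibroblast markers rose for 9 and 4 of 15, with sums of 8780 to 10800, 16000 to 18600, 9660 to 13100 and 13700 to 16800. Of 2 measured cholangiocyte markers 1 rose in wild-type livers (118 to 296 and 217 to 420) and none was called in ApoE-/- livers (192 to 299 and 214 to 333). Of 3 red blood cell markers 2 rose and 1 fell in wild-type livers (4920 to 7050 and 13000 to 29000), and 1 rose and 1 fell in ApoE-/- livers (5090 to 15400 and 10100 to 16100). Krt19, Epcam, Cftr, Cd8a, Jchain and Cd5l were below detection on all 20 arrays. Of 14 hepatocyte markers 2 rose and 1 fell in wild-type livers, and 2 rose and 0 fell in ApoE-/- livers. The part that other cells have in the P450 changes was not tested.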

How the data were processed

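Liver RNA on 20 Illumina mouse BeadChips was analysed, 5 arrays in each of 4 groups. The authors deposited a table of non-normalised intensity with a detection p-value per probe and array, used here, and a table of processed intensities, used as an alternative. The submitters' processing notes name GenomeStudio and BeadStudio, version not given. By their array means, these deposited intensities had been scaled within 4 sets, by genotype and batch. Non-normalised intensities were background corrected, quantile normalised and log2 transformed by neqc (limma 3.58.1, R 4.3.3, offset 16). Of 45281 probes, 34885 had 1 gene symbol in the platform table, 18 several and 10378 none. Probes with a detection p-value under 0.05 on at least 5 of 20 arrays (18285) were fitted with 4 group means, and 5 contrasts were adjusted by Benjamini-Hochberg over all 18285, with calls at an adjusted p under 0.05. The number of arrays limits the precision.

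The families' probes, the gene lists and the tests were chosen with earlier results of these data known. Per-array values were given for the 6 largest rises and falls among called members of a contrast, and for genes whose probes disagreed, and up to 3 called genes per list and antagonist effect were named by the smallest adjusted p. Other genes named were chosen after their values were seen. A bound set the mean of the bright group against dim arrays at their lowest detected signal, or at the probe's signal where that was higher. Promoters were compared with Biopython 1.88. Alternatives changed the scaling, background correction, input table, detection filter, probe per symbol, batch, slide, replicate block, groups fitted and array weights, and left out each array. Replicate numbers come from the labels. Deviations of same-numbered arrays from their group means correlated at -0.002 to 0.47 over 20 pairs, 19 of them over 0.1. By this measure 13 of 20 arrays correlated best with their own number. Untreated wild-type replicate 1 correlated more with treated wild-type replicate 2 (0.406) than with replicate 1 (0.358), all of the first batch. Number was not separated from batch here.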

Additional observations from a re-analysis of the deposited data

Results flagged for a closer look

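Among 200 sets of 5 arrays (50 measured probes in 4 groups) 13 held an array whose gap to the nearest other exceeded Dixon's limit, and chance gives about 1 in 20. Of these, 7 were in Cyp2a5. Treated wild-type replicate 5 was high on 3 Cyp2a5 probes, at 10.59 against 9.48 for the next array on ILMN_1229267, 11.81 against 10.64 on ILMN_2734598 and 8.81 against 8.06 on ILMN_3079804. Untreated wild-type replicate 1 was low on 3 probes, at 12.18 against 12.5 on ILMN_1244847, 7.02 against 8.17 on ILMN_3079804 and 11.75 against 12.45 on ILMN_3159131. Treated ApoE-/- replicate 3 was high on ILMN_2734598, at 12.3 against 11.7. These probes share a gene and are not separate observations.

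In the other genes, Cyp2c67 (ILMN_3153624) was at 9.64 in treated ApoE-/- replicate 5 against 8.45 for the next. Cyp2d10 was at 13.16 against 13 in treated ApoE-/- replicate 1, and Cyp2d13 at 8.57 against 8.26 in untreated ApoE-/- replicate 5. Cyp2d26 was at 10 against 10.41 in treated wild-type replicate 4 (ILMN_1227936) and at 13.87 against 13.68 in untreated wild-type replicate 5 (ILMN_2704777). Cyp2e1 was at 15 against 15.19 in untreated wild-type replicate 2.

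The antagonist effect differed between genotypes, by limma's interaction contrast, for Cyp2a12 (0.58) and for 4 Cyp2a5 probes (1.501 on ILMN_1229267, 0.89 on ILMN_1244847, 1.65 on ILMN_3079804 and 1.31 on ILMN_3159131).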

How the results depend on the processing

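Of 59 called member results 19 kept their call under every alternative run, and 42 kept it whichever single array was left out. Batch as a block and the replicate block lost 0 of 59, array weights, no background correction and the authors' processed intensities 1 each, the slide block 4, equal medians, no detection filter and batch 1 alone 15 each, and batch 2 alone, with 2 arrays a group, 32. Detection on 10 arrays lost 0 of 55 and fitting only the 2 groups compared 8 of 54. The count for wild-type livers (21) stayed within 1.5 times under every alternative, at 17 to 22 when 1 array was left out. The count for ApoE-/- livers (21) was 13 with the highest-mean probe per symbol, where 35 probes are tested, and 9 in batch 2 alone, and ran from 17 to 22 without 1 array. The count for the difference of effects (5) was 0 with equal medians, 2 without a detection filter, 2 with the highest-mean probe and 3 in batch 2 alone, where 2 of the 3 were lower and 0 of the 5 kept their call. Of the 5, 1 kept it in batch 1 alone and 2 with slide as a block. Without 1 array it ran from 1 to 6, falling to 1 without treated wild-type replicate 2 or 4, untreated wild-type replicate 2 or 3 or untreated ApoE-/- replicate 1. It was 2 without treated wild-type replicate 1 or 3, untreated wild-type replicate 4 or 5, treated ApoE-/- replicate 2, 3 or 4 or untreated ApoE-/- replicate 2, and 3 without untreated ApoE-/- replicate 3 or 4. The untreated genotype count (3) was 1 in batch 2 alone and 6 with slide as a block, and 2 to 4 without 1 array. With the slide block the untreated ApoE-/- level rests on replicates 1 to 3 alone. The treated genotype count (9) was 5 without a detection filter, with the highest-mean probe and in batch 1 alone, and 5 to 8 without 1 array, 5 without treated wild-type replicate 3 or 4. It was 6 with equal medians and 6 in the fit of its 2 groups. Cyp2c67 (ILMN_3074610) turned from 0.72 to -0.0196 in ApoE-/- livers in batch 2 alone. The replicate block gave counts of 22, 22, 6, 3 and 9 in the order above, and added calls for Cyp2c70, Cyp2c50 and Cyp2a5. The causes were not tested. Fitted values of probes near background, such as Cyp2a4, Cyp2b9, Cyp2b10, Cyp1b1 and Cyp2g1, rest partly on undetected arrays.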
